A study of Homo sapiens with 15 samples.

Results

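The 9 genes described here carry glucose into a cell, trap it by phosphorylation, or encode α-arrestins, of which TXNIP and ARRDC4 follow the cell's glucose supply. They are the transporters SLC2A1, SLC2A2, SLC2A3 and SLC5A1, the hexokinases HK1 and HK2, and the α-arrestins TXNIP, ARRDC3 and ARRDC4. They were chosen by name from what is known of glucose uptake, out of 19775 genes on the array, but with earlier results of these data known. Ranks and shares given for these members are therefore descriptions. A gene with several probe sets was represented by the one that was brightest on average. Of the 9 genes, 7 had a log2 signal of at least 5, the limit used here for detection, in at least 4 of 12 fluid arrays and were tested. The other 2, SLC2A2 and SLC5A1, stayed under that limit in all 15 arrays.

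The cells were Caco-2, an epithelial line established from a colon carcinoma and used before differentiation, when the line does not yet form an absorptive brush border. For 12 arrays the serum-free medium held 10% by volume of cell-free fluid from a colon simulator, in which gut bacteria had fermented polydextrose, a poorly digested glucose polymer, for 48 h. Polydextrose was present at 0%, 1% or 2%, and each concentration gave 4 arrays, one for each of the simulator's linked vessels, which stand for the ascending colon (vessel 1), transverse colon (vessel 2), descending colon (vessel 3), and sigmoid colon and rectum (vessel 4). The other 3 arrays were of cells given 5 mM butyrate, a bacterial fatty acid that inhibits histone deacetylases, of cells given 100 mM NaCl, and of cells in medium alone. All cells were treated for 24 h.

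Each treatment was measured on a single array, and nothing says that fluids of one concentration came from more than 1 simulation, so concentration and simulation cannot be told apart. The labels do not say that cultures were separate, so a p-value here reflects only how far these arrays scatter, which may be technical. With 1 array for each concentration and vessel, that scatter also holds any dependence of a concentration difference on the vessel. Precision is limited by how few arrays there are. In RNA from a whole culture, fewer cells of a type and less RNA per cell cannot be told apart. Between 42.3% and 44.1% of genes reached the detection limit on an array. The actin 3' minus 5' probe signal, a sign of RNA breakdown, was 0.620 to 0.924 log2 in the 3 fluids of vessel 1, 0.366 to 0.636 in those of vessels 2 to 4, and 0.951 in medium. Of 8 colon epithelium markers 5 were detected in all arrays (EPCAM, CDH1, KRT8, KRT18 and KRT20), while VIL1, CDX1 and CDX2 were under the limit in all. All 5 mature enterocyte markers were under it in all arrays, as were 4 of 5 fibroblast markers and all 3 leukocyte markers that had a probe set. The fifth fibroblast marker, the collagen gene COL1A1, read 8.13 with butyrate and 3.29 with NaCl, against 1.37 in medium, and in the fluids 6.35 to 6.86 at 0%, 5.26 to 7.29 at 1% and 6.57 to 8.26 at 2%. The summed signal of the 5 markers was 8.23 log2 with butyrate and 4.90 with NaCl, against 4.54 in medium, and in the fluids 6.71 to 7.09 at 0%, 5.90 to 7.48 at 1% and 6.86 to 8.36 at 2%. The other 4 markers stayed at or below 2.98 in every array, so the rise of the sum over medium follows COL1A1 alone. The relation of the COL1A1 signal to the members' values was not tested.

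Glucose crosses the membrane through SLC2A proteins, which let it pass down its gradient, or through SLC5A1, which couples it to sodium in the small intestine. Hexokinases convert it to glucose 6-phosphate, and the factors MondoA (MLXIP) and ChREBP (MLXIPL), with their partner MLX, respond to glucose phosphates by activating a small set of genes through paired E-box-like elements. TXNIP and ARRDC4 are known targets of MondoA, and their proteins reduce glucose uptake by promoting removal of transporters from the cell surface, so the pair forms a feedback loop on uptake. TXNIP also binds and inhibits thioredoxin.

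The sequences upstream of TXNIP and ARRDC4 are shown because both genes are known glucose-response genes and their signals moved over a wide range here. Each line gives the 250 bases before a start of the gene in RefSeq (GRCh38.p14), on chr1:145996580-145996829, minus strand, for TXNIP, and on chr15:97960453-97960702, plus strand, for ARRDC4. Capitals mark matches to 3 motifs searched on both strands, the paired element, written as CACGNG and CNCGNG with 5 bases between them, the E-box CACGTG, and the CCAAT box, which reads ATTGG on the other strand.
TXNIP: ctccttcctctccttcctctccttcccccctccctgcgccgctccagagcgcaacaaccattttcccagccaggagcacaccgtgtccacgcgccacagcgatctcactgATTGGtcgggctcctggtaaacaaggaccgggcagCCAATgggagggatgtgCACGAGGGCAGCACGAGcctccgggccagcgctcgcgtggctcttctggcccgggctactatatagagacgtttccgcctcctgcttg
ARRDC4: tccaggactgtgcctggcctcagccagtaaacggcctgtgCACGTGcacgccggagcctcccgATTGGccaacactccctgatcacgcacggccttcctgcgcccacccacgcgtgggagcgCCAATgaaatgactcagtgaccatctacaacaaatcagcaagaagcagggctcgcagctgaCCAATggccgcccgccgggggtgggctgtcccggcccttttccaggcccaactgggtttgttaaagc
The TXNIP sequence held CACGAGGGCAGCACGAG at position -88 from the start, with CCAAT boxes at -105 and -140. The ARRDC4 sequence held a CACGTG at -210 and 3 CCAAT boxes at -67, -128 and -187. Matches were counted in windows that run 250 bases before to 50 bases after a start, and overlaps between motifs were allowed. Of 34796 such windows in the RefSeq table, 0.503% held the paired motif, 7.2% held CACGTG and 34.6% held CCAAT. Among the 17 windows of the 8 members that had one, the paired motif occurred in 1, the TXNIP window shown, and CACGTG in the ARRDC4 window and in 1 of 2 HK2 windows. These matches describe letters and were not tested as binding sites.

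TXNIP had the widest range of the 9 genes over the 15 arrays, 5.57 log2 between its lowest and highest array. Its signal was 7.92 log2 with butyrate and 4.15 with NaCl, against 6.05 in medium. In the fluids of vessels 1 to 4 it was 5.35, 8.37, 9.35 and 9.19 at 0% polydextrose, 8.02, 8.89, 7.80 and 8.52 at 1%, and 9.71, 9.06, 7.96 and 8.25 at 2%. The vessel 1 fluid without polydextrose was the one fluid that read below medium, and the vessel 1 fluid with 2% was the highest of all 15 arrays. The 3 concentrations overlapped.

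The difference of TXNIP between 2% and 0% polydextrose depended on the vessel. It was 4.37 log2 in vessel 1 and 0.69 in vessel 2, but -1.39 in vessel 3 and -0.94 in vessel 4. The vessel 1 difference ranked first among the rises of 8737 tested genes. With 1% against 0% the 4 vessels gave 2.68, 0.51, -1.55 and -0.67. Averaged over vessels, the difference between 2% and 0% was 0.68 ± 0.77 (SE), with a 95% interval of -1.06 to 2.42, and did not pass (limma adjusted p = 0.559). The SE of this mean includes the dependence on the vessel.

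An interaction term, linear in concentration and scaled to the step between 0% and 2%, measured this dependence as the difference in vessels 2 to 4 minus the difference in vessel 1. For TXNIP it was -4.91 ± 0.78 (SE, limma adjusted p = 0.0369), and 2 of 7 tested members passed it, TXNIP and SLC2A1, both as lower values, against 1.17% of all genes in either direction and 0.824% lower. In size it ranked first among 8737 genes. It still passed when the 0% fluid of vessel 3, the 1% fluid of vessel 1 or 3, or the 2% fluid of vessel 2 was left out. Without any one of the other 8 arrays it did not pass, and without the 0% fluid of vessel 1 it was -3.33 (adjusted p = 0.412). When all probe sets were tested, the chosen TXNIP probe set did not pass (adjusted p = 0.0628). The other 2 TXNIP probe sets gave -5.12 (adjusted p = 0.0834) and -5.20 (adjusted p = 0.102) in that fit. Those 2 read 4.32 and 3.99 in the 0% fluid of vessel 1, under the detection limit, so the size of their interaction is not known exactly. Within vessels 2 to 4 alone, TXNIP was 8.43 ± 0.57 at 2% and 8.97 ± 0.52 at 0% (SD, n = 3 each), a difference of -0.55 that did not pass (adjusted p = 0.295).

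**Figure D1:**
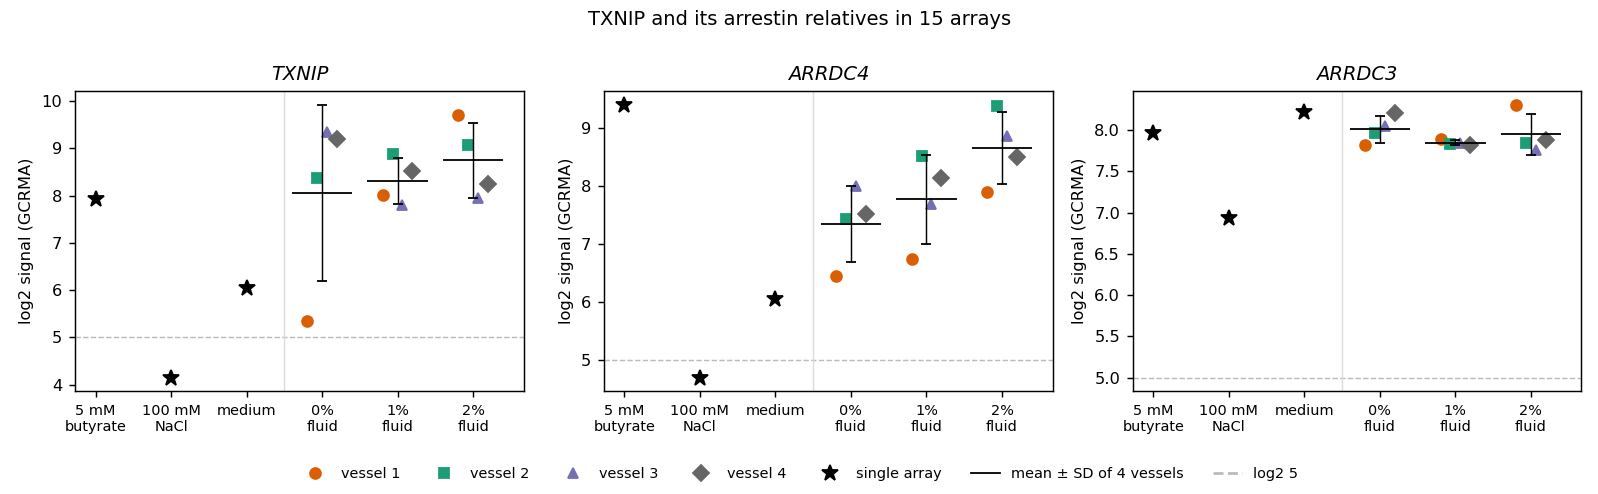
Signal of TXNIP, ARRDC3 and ARRDC4 (log2, vertical axes) in the 15 arrays, with stars for the single butyrate, NaCl and medium arrays, a marker for each vessel in the 0%, 1% and 2% fluids, and bars for mean ± SD of the 4 vessels. TXNIP in vessel 1 reads 5.35, 8.02 and 9.71 as polydextrose increases, while ARRDC4 in vessel 1 reads 6.45, 6.74 and 7.89.

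ARRDC4, the α-arrestin closest to TXNIP in its known regulation, had a signal of 9.40 log2 with butyrate and 4.69 with NaCl, against 6.05 in medium. The fluids of vessels 1 to 4 gave 6.45, 7.42, 7.997 and 7.51 at 0%, 6.74, 8.52, 7.69 and 8.14 at 1%, and 7.89, 9.37, 8.86 and 8.50 at 2%. All 12 fluids were above medium and below butyrate, and 3 of the 4 values at 2% lay above every value at 0%. In each vessel the 2% fluid was higher than the 0% fluid, by 1.44, 1.95, 0.86 and 0.99 from vessel 1 to vessel 4. The mean was 8.65 ± 0.62 at 2% and 7.34 ± 0.65 at 0% (SD, n = 4 each). ARRDC4 thus rose by 1.31 ± 0.21 log2 (SE), or 2.48-fold (limma adjusted p = 0.00454), and 2 of 7 tested members passed this comparison, both as rises, against 20.8% of all genes in either direction and 9.65% as rises.

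That rise of ARRDC4 passed whichever of the 12 arrays was left out (adjusted p up to 0.0231) but not when the vessel was left out of the model (adjusted p = 0.214). The step of 2% against 1% was 0.88 (adjusted p = 0.141), and that of 1% against 0% was 0.43 (adjusted p = 0.236). Neither of these steps passed for any member. Of all genes 4.78% passed 1% against 0%, while for 2% against 1% limma passed 0 of 8737 genes (0%), with 1608 at an unadjusted p under 0.05. The ARRDC4 interaction did not pass (-0.17 ± 0.50 SE, 95% interval -1.31 to 0.96, adjusted p = 0.884). Its vessel 1 fluids were lower than those of vessels 2 to 4 at every concentration, with a mean difference of -1.20 ± 0.20 (SE, adjusted p = 0.00264), and this passed whichever array was left out. For vessel 1 against the later vessels 3 of 7 tested members passed, SLC2A3, HK1 and ARRDC4, all lower, against 34.7% of all genes in either direction and 15.4% lower. The actin 3' minus 5' signal given above also differed between vessel 1 and the later vessels, and its part in these values was not tested.

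ARRDC3, another α-arrestin, which acts on receptor trafficking and on glucose uptake in other cells, moved little among the fluids. It was 7.96 log2 with butyrate and 6.94 with NaCl, against 8.22 in medium. The fluids of vessels 1 to 4 gave 7.82, 7.97, 8.05 and 8.20 at 0%, 7.89, 7.84, 7.84 and 7.82 at 1%, and 8.31, 7.85, 7.76 and 7.89 at 2%. The groups overlapped, and 11 of 12 fluids lay below medium. The difference of 2% against 0% was -0.06 ± 0.12 (SE, 95% interval -0.34 to 0.22, limma adjusted p = 0.761). The interaction was -0.74 ± 0.15 and missed the threshold (adjusted p = 0.0565). Within vessels 2 to 4 alone the difference of 2% against 0% was -0.25 ± 0.07 (SE, adjusted p = 0.0378), in a fit where 36.7% of all genes passed.

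SLC2A3, the high-affinity glucose transporter GLUT3 of neurons and many tumours, was the transporter with the largest shifts. It read 12.41 log2 with butyrate and 8.37 with NaCl, against 7.92 in medium. In the fluids of vessels 1 to 4 it read 9.92, 11.14, 11.01 and 10.58 at 0%, 9.40, 11.55, 11.41 and 11.37 at 1%, and 10.61, 11.92, 11.81 and 11.63 at 2%. Every fluid lay above medium and below butyrate, and at each concentration the vessel 1 fluid was the lowest. The butyrate array was 4.49 log2 above medium, or 22.4-fold, rank 59 among the rises of 8057 genes compared. The chosen probe set carries a suffix that marks cross-hybridisation, and its paralogue SLC2A14 is nearly identical. The 2 probe sets that the annotation gives to both genes read 11.71 and 11.84 with butyrate, against 6.52 and 6.52 in medium, so reads of the pair could not be separated.

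SLC2A3 averaged 11.49 ± 0.60 at 2% and 10.66 ± 0.55 at 0% (SD, n = 4 each). It rose by 0.83 ± 0.18 log2 (SE), or 1.78-fold (limma adjusted p = 0.0145), with rises of 0.70, 0.78, 0.80 and 1.05 in vessels 1 to 4. The groups overlapped because the vessel 1 fluids were low at both concentrations. The call was lost when the 0% fluid of vessel 2, 3 or 4 was left out (adjusted p = 0.0553, 0.0538 and 0.051) and without the vessel in the model (adjusted p = 0.287). When all probe sets were tested, its other 2 probe sets gave 1.06 (adjusted p = 0.00587) and 1.15 (adjusted p = 0.00317). The chosen one had an adjusted p of 0.0203 in that fit. Vessel 1 was lower than vessels 2 to 4, with a difference of -1.40 ± 0.17 (SE, adjusted p = 0.000922), and this passed whichever array was left out. With vessel 1 left out altogether, 1% fluids were also higher than 0% fluids, by 0.53 ± 0.09 (SE, adjusted p = 0.0141), a comparison that 13% of all genes then passed.

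SLC2A1, the widely expressed basal transporter GLUT1, was lower at 2% than at 0% in vessels 2 to 4. It read 9.84 log2 with butyrate and 8.53 with NaCl, against 10.23 in medium. The fluids of vessels 1 to 4 gave 10.90, 11.02, 11.17 and 10.99 at 0%, 11.03, 10.56, 10.56 and 10.55 at 1%, and 11.41, 10.54, 10.05 and 10.29 at 2%. In vessels 2 to 4 each 0% fluid lay above every 1% and 2% fluid, and in vessel 1 the 2% fluid was the highest array of all 15. The NaCl array was the lowest, and 11 of 12 fluids lay above medium.

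Averaged over the vessels, SLC2A1 was 10.57 ± 0.59 at 2% and 11.02 ± 0.11 at 0% (SD, n = 4 each), a difference of -0.45 ± 0.21 (SE) that did not pass (limma adjusted p = 0.15). By vessel the difference was 0.51 in vessel 1, then -0.48, -1.12 and -0.71. The interaction was -1.28 ± 0.23 (SE, adjusted p = 0.0447), the other member that passed it. Of the 12 fits that each left out 1 array it passed in 2, those without the 1% fluid of vessel 1 or the 2% fluid of vessel 2, and its adjusted p reached 0.339 without the 0% fluid of vessel 1. When all probe sets were tested, neither SLC2A1 probe set passed, the second at -2.87 (adjusted p = 0.0567) and the chosen one at -1.28 (adjusted p = 0.0736). Within vessels 2 to 4 alone, the SLC2A1 difference was -0.77 ± 0.12 (SE, adjusted p = 0.00322) for 2% against 0% and -0.50 ± 0.12 (SE, adjusted p = 0.0375) for 1% against 0%. Of all genes 36.7% passed the first of these comparisons and 13% the second.

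**Figure D2:**
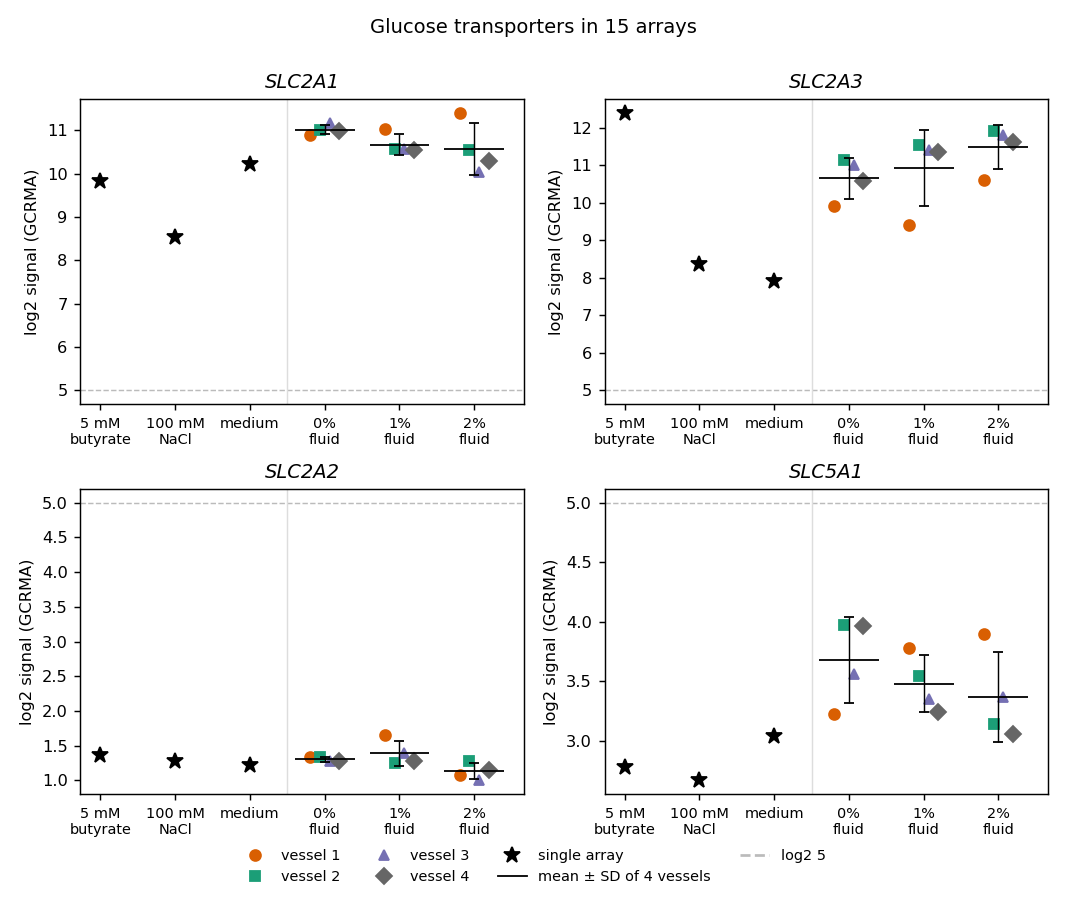
Signal of the transporters SLC2A1, SLC2A2, SLC2A3 and SLC5A1 (log2, vertical axes) by treatment, with stars for single arrays, a marker for each vessel, bars for mean ± SD of the 4 vessels and a dashed line at log2 5. SLC2A3 is highest with butyrate (12.41) and SLC2A1 is lowest with NaCl (8.53), while SLC2A2 and SLC5A1 lie below the line in all arrays.

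SLC2A2, the low-affinity transporter GLUT2 of liver, pancreas and the basal side of enterocytes, read 1.01 to 1.65 log2 over the 15 arrays. SLC5A1, the sodium-glucose transporter SGLT1 of the small intestine, read 2.67 to 3.97. Both lay under the detection limit, so neither gene was compared. All 12 fluids read above medium (3.04) for SLC5A1, but differences at such low signals were not tested. The 8 listed brush-border genes, which include digestive enzymes of the mature enterocyte, were likewise all below the limits for testing.

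HK1, the hexokinase of most tissues, was 10.51 log2 with butyrate and 9.73 with NaCl, against 8.87 in medium. The fluids of vessels 1 to 4 gave 9.82, 10.08, 10.15 and 9.77 at 0%, 10.03, 10.28, 10.18 and 10.16 at 1%, and 9.94, 10.27, 10.33 and 10.19 at 2%. Medium was the lowest array and butyrate the highest, with all fluids between. Concentrations overlapped. The 2% fluids were 0.23 ± 0.08 (SE) above the 0% fluids, which missed the threshold (limma adjusted p = 0.0632), although each vessel had a positive difference, 0.12, 0.18, 0.18 and 0.42. HK1 passed without vessel 1 (0.26, adjusted p = 0.0451), in a fit where 36.7% of all genes passed. Vessel 1 was lower than the later vessels, with a difference of -0.23 ± 0.07 (SE, adjusted p = 0.035). Of the 12 fits that each left out 1 array this passed in 3, those without the 0% fluid of vessel 1, the 0% fluid of vessel 4 or the 1% fluid of vessel 3.

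HK2, the hexokinase induced in muscle, fat and many tumours, was 8.81 log2 with butyrate and 8.74 with NaCl, against 9.63 in medium. The fluids gave 9.14, 9.66, 9.99 and 9.70 at 0%, 9.95, 9.71, 9.47 and 9.54 at 1%, and 9.82, 9.74, 9.63 and 9.47 at 2%. All 12 fluids were above both the butyrate and the NaCl array, and they lay on both sides of medium. The mean was 9.66 ± 0.15 at 2% and 9.63 ± 0.35 at 0% (SD, n = 4 each), a difference of 0.04 with a 95% interval of -0.37 to 0.45 (limma adjusted p = 0.902). By vessel the difference was 0.68, 0.08, -0.37 and -0.23, and the interaction of -0.85 ± 0.32 (SE) did not pass (adjusted p = 0.193).

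**Figure D3:**
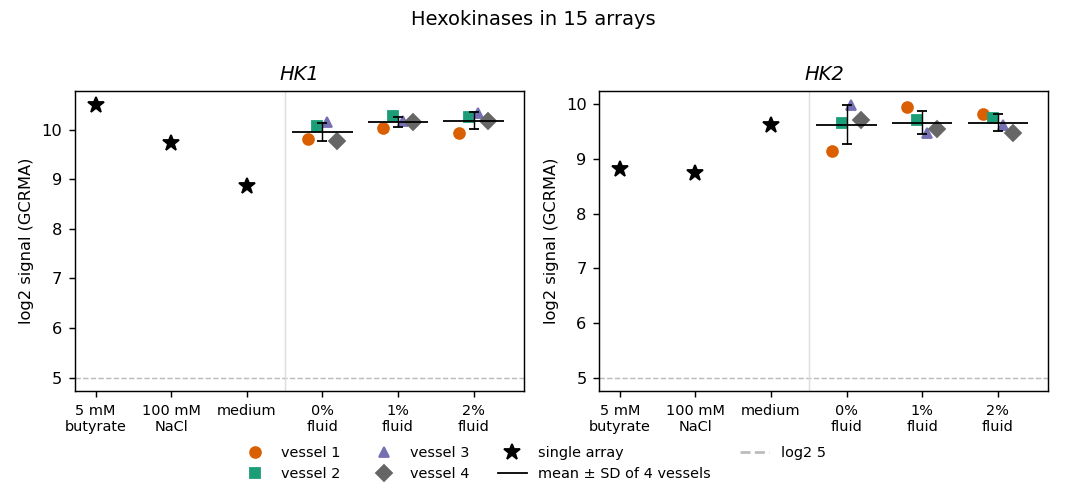
Signal of HK1 and HK2 (log2, vertical axes) by treatment, with stars for single arrays, a marker for each vessel and bars for mean ± SD of the 4 vessels. HK1 is above its medium value of 8.87 in all fluids, while the HK2 fluids lie on both sides of its medium value of 9.63.

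Set beside each other by vessel, the differences between 2% and 0% fluid fell into several shapes. SLC2A3, ARRDC4 and HK1 were positive in all 4 vessels. TXNIP and HK2 were positive in vessels 1 and 2, and SLC2A1 and ARRDC3 in vessel 1 alone, with negative values further along. Over all 8737 genes the median difference was -0.01.

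**Figure D4:**
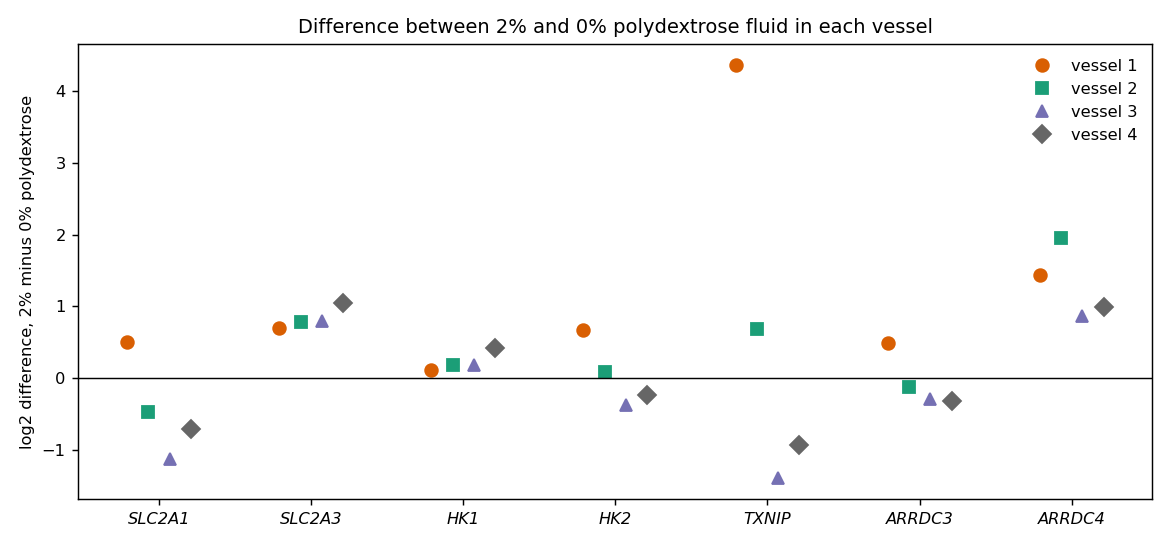
Difference between 2% and 0% polydextrose fluid (log2, vertical axis) for each tested member, with a marker for each vessel and a line at 0. TXNIP spans 4.37 in vessel 1 to -1.39 in vessel 3, and ARRDC4 stays between 0.86 and 1.95.

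**Figure D5:**
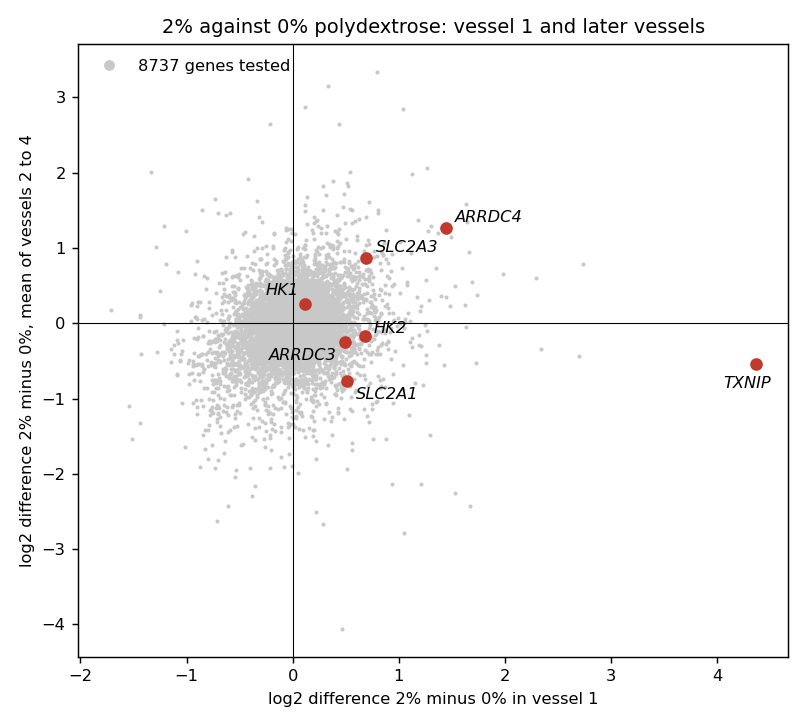
Difference between 2% and 0% fluid in vessel 1 (log2, horizontal axis) against the mean difference in vessels 2 to 4 (log2, vertical axis), with grey points for the 8737 genes tested and named points for the members. TXNIP lies at the far right, at 4.37 and -0.55, and SLC2A3 and ARRDC4 lie above 0 on both axes.

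The single arrays of the added compounds have no replicate, so genes that differed by 1 log2 unit or more were counted, with no test. With butyrate 4 of 7 compared members were counted, all higher than medium, where 31.2% of genes compared were counted in either direction and 15.6% as higher. These were SLC2A3 (4.49), ARRDC4 (3.35, or 10.2-fold), TXNIP (1.87) and HK1 (1.64). With NaCl 4 of 7 were counted, all lower, against 16.6% of genes in either direction and 7.67% lower. SLC2A1 differed by -1.70, or 3.24-fold lower, and ARRDC3 by -1.28, or 2.43-fold lower. TXNIP and ARRDC4 were below log2 5 with NaCl, so their falls are bounds of at least 1.05 on the log2 scale for each.

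Fluid without polydextrose also differed from medium for 4 of 7 compared members. The mean of the 0% fluids exceeded medium by 2.74 for SLC2A3, 2.02 for TXNIP, 1.29 for ARRDC4 and 1.08 for HK1, in a comparison where 12.6% of genes were counted in either direction and 7.81% as higher. The mean of the 2% fluids exceeded it by 3.57, 2.70, 2.60 and 1.31 for the same genes, where 23.2% of genes were counted in either direction and 11.7% as higher. SLC2A1 was not counted for 0% fluid with its chosen probe set (0.79). Its other probe set read 4.74 in medium, under the detection limit, and 6.36 to 7.46 in the 0% fluids. With its probe sets averaged, SLC2A1 exceeded medium by 1.48 with 0% fluid, past the limit for counting, and by 0.79 with 2% fluid. All comparisons with medium share the 1 medium array, whose own spread was not measured. A limma fit with a spread borrowed from the fluid arrays assumes that a single array varies as those do, which could not be checked. Under that assumption TXNIP had an adjusted p of 0.326 for butyrate, 0.396 for NaCl, 0.221 for 0% and 0.0807 for 2% fluid, and ARRDC4 had 0.00975, 0.28, 0.173 and 0.00943. Against the NaCl array in place of medium, HK1 differed by 0.78 with butyrate, 0.22 with 0% fluid and 0.45 with 2% fluid, each under the limit for counting.

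Other genes of glucose handling were followed through lists of the pathway. Of all genes, 20.8% passed 2% against 0% and 34.7% passed vessel 1 against the later vessels. Of 4 other sugar transporters tested, SLC2A12 (-0.65, limma adjusted p = 0.02) and SLC2A10 (-0.88, adjusted p = 0.0447) fell at 2% against 0% on average over vessels. The median of the 4 was -0.37. In vessel 1 neither fell, with 5.91 at 2% and 5.89 at 0% for SLC2A12, and 7.67 and 7.37 for SLC2A10. Their interactions did not pass (-0.89, adjusted p = 0.0733, and -1.57, adjusted p = 0.0682). SLC2A12 read 4.74 and 4.89 at 2% in vessels 3 and 4, under the detection limit, so the size of its fall is uncertain. Both transporters were higher in vessel 1 than later on average, by 0.67 (adjusted p = 0.00824) and 0.90 (adjusted p = 0.0227). At 0%, however, SLC2A10 read 7.37 in vessel 1 and 7.12, 7.40 and 7.41 in vessels 2 to 4. Of 2 other sugar kinases, ADPGK, an ADP-dependent glucokinase, fell at 2% (-0.29, adjusted p = 0.0365). Of 19 glycolysis genes 1 rose and 0 fell at 2%, BPGM, which makes 2,3-bisphosphoglycerate (0.65, adjusted p = 0.0254), and the median was 0.02. In vessel 1 alone BPGM did not rise, with 6.78 at 2% and 6.83 at 0%. In vessel 1 against the later vessels 5 of the 19 were lower and 0 higher, where 15.4% of all genes were lower. Among them were BPGM (-0.73, adjusted p = 0.00768) and the regulatory enzyme PFKFB3 (-0.41, adjusted p = 0.0208). The aldolase ALDOC also passed (adjusted p = 0.0196), but its vessel 1 signals of 3.74 at 0% and 4.70 at 1% were under the detection limit, so the size of its difference is not known. None of 7 pentose phosphate genes passed 2% against 0%.

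Of 4 tested genes from a glucose-sensing list, which also holds gluconeogenic enzymes, none passed for 2% against 0%, with a median of -0.11. MLXIP, which encodes MondoA, differed by -0.33 (adjusted p = 0.112) and its partner MLX by 0.02 (adjusted p = 0.886), while MLXIPL read 2.44 to 3.71 and was below the limit in all arrays. MLXIP was higher in vessel 1 than in the later vessels, by 0.55 ± 0.13 (SE, adjusted p = 0.0103). Among 11 arrestin and thioredoxin genes 1 rose and 1 fell at 2%. TXN, the thioredoxin that TXNIP binds, fell by 0.33 (adjusted p = 0.0085), and NEDD4L, a ubiquitin ligase, rose by 0.33 (adjusted p = 0.0361). In vessel 1 NEDD4L read 9.75 at 2% and 9.74 at 0%. Of 8 regulators of sugar transporters MYC, a factor that activates glycolytic genes, fell (-0.67, adjusted p = 0.00658), and the other 7 did not pass, HIF1A among them (-0.07, adjusted p = 0.473).

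In the single arrays 4 of 18 glycolysis genes were counted with butyrate, all higher, where 31.2% of all genes were counted in either direction. They were the neuronal enolase ENO2 (at least 2.66, since medium was under log2 5), BPGM (2.15), the regulatory enzyme PFKFB2 (1.68) and ALDOC, named after its values were seen, which read 6.56 with butyrate, against 2.80, under the limit, in medium. With NaCl 3 of 15 were counted, where 16.6% of all genes were, the phosphofructokinase subunits PFKM (-1.72) and PFKL (-1.16) as lower and BPGM (1.56) as higher. Of 5 genes compared from the glucose-sensing list, 3 were counted with butyrate, all lower. They were the gluconeogenic enzymes PCK2 (-1.72) and FBP1 (-1.57, a bound, since butyrate was under log2 5) and KLF10, a glucose-induced repressor (-1.06). MLXIP and MLX were not counted, with 6.67 and 9.13 with butyrate against 7.06 and 8.81 in medium. Of 5 genes of that list compared with NaCl, 2 were counted as lower, PCK2 (-1.92) and KLF10 (-1.66), and 1 as higher, FBP1 (1.13). Of 7 regulators of sugar transporters compared with butyrate, 2 were counted as lower, MYC (-2.62) and KLF5 (-1.08). Of 9 arrestin and thioredoxin genes compared with NaCl, 1 was counted as higher, ARRB1, a β-arrestin (2.55). The 2 counted as lower were NEDD4 (-1.44) and TXNRD1 (-1.05).

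The genes whose pattern over the 15 arrays was most like that of each tested member were found by Pearson's r among 8830 genes, as a description, since all points share the same arrays. SLC2A3 was closest to RUNDC3B (0.994), CRYM (0.989) and SEMA6A (0.986). SLC2A1 was closest to COXFA4L3 (0.975), UBE2E2 (0.971) and PLEK2 (0.968). HK1 was closest to FGFR3 (0.973), CAPN5 (0.972) and TP53INP1 (0.968), and HK2 to PHLDA1 (0.901), IFNGR1 (0.896) and NAMPT (0.884). TXNIP was closest to MIR210HG (0.942), ARFGAP3 (0.937) and KDM3A (0.922), and ARRDC4 to AP3S1 (0.970), TFB1M (0.961) and ILRUN-AS1 (0.958). ARRDC3 was closest to AIG1 (0.944), EMC2 (0.911) and ATP11B (0.903).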

How the data were processed

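Total RNA from 15 differently treated samples of the cells was labelled with biotin and hybridised, per the labels, to 1 Affymetrix array each. The authors deposited log2 values for 54675 probe sets, made with GCRMA per the submitters' processing notes, which corrects background, normalizes and summarizes probes; its version is not given in the sources used here. That the scale is log2 was inferred from the values (0.173 to 14.46). The platform annotation gave 1 gene symbol to 41097 probe sets, several to 1801 and none to 11777.

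Genes with several probe sets were represented by the one with the highest mean over 15 arrays, and genes at log2 5 or more in at least 4 of 12 fluid arrays were tested (8737). Concentration and vessel were factors in limma 3.58.1 (R 4.3.3), with 6 residual degrees of freedom (5 for the interaction) and two-sided p-values adjusted by Benjamini-Hochberg over all tested genes. The labels make vessel a part of the design, so it was a block. Over 12 pairs of arrays from 1 vessel, deviations from concentration means correlated with a median of 0.376, and 10 of 12 pairs were above 0.1. Single arrays were compared where the brighter side was at log2 6 or more; a side wholly under 5 was set to 5 or to its own value if higher. The members, gene lists and named genes (all members, up to 3 genes per list, 3 most alike per member) were chosen with earlier results of these data known. Alternatives are given in the closing section.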

Additional observations from a re-analysis of the deposited data

Results flagged for a closer look

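SLC2A1 in the 1% polydextrose fluid of vessel 1 read 11.03 log2 and stood apart from the other 3 fluids of that concentration, which read 10.55 to 10.56. SLC2A3 in the same array read 9.40, against 11.37 to 11.55 in the other 3. In both cases the gap to the nearest array, as a share of the group's whole range, was above Dixon's 95% critical value for 4 samples (0.977 for SLC2A1 and 0.919 for SLC2A3). Of 21 groups of 4 fluids checked, 2 were past that value, and both flagged values come from the same array. The 4 fluids come from different vessels and are not replicates, so the rate at which chance passes that value does not apply here. SLC2A3 was lowest in vessel 1 at every concentration, with a mean difference of -1.40 from the later vessels. For SLC2A1 that difference was 0.47 and did not pass (limma adjusted p = 0.0877).

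The difference between 2% and 0% polydextrose was not the same in vessels 2 to 4 as in vessel 1 for TXNIP, by -4.91 log2 (limma adjusted p = 0.0369), and for SLC2A1, by -1.28 (adjusted p = 0.0447). For TXNIP the vessel 1 difference was 4.37 and those of vessels 2 to 4 were 0.69, -1.39 and -0.94. For SLC2A1 it was 0.51 in vessel 1, and -0.48, -1.12 and -0.71 in the later vessels.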

How the results depend on the processing

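The rise of ARRDC4 at 2% against 0% polydextrose passed in 20 of 21 alternatives and that of SLC2A3 in 19 of 23, while the TXNIP interaction passed in 10 of 20 and that of SLC2A1 in 7 of 19; the causes were not tested. Without the replicate block for vessel, limma passed 0 genes at 2% against 0% and 0 at 1% against 0%, with 1952 and 1125 at an unadjusted p under 0.05. Fits of only the 8 arrays compared passed 863 (2% against 0%), 1 (1% against 0%) and 61 genes (2% against 1%), and fits without vessel 1 passed 3205, 1136 and 141. Without the signal filter 258 genes passed 1% against 0%. The interaction passed 154 genes with a filter at log2 6, 13 with every probe set on its own and 345 with an intensity trend and robust prior. Vessel 1 against the later vessels passed 4560 probe sets, and 809 genes in the 0% and 1% arrays only, a setting chosen after seeing the data.

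The counts for butyrate, NaCl, 0% fluid and 2% fluid against medium were 4178, 2964, 2465 and 3433 at 1.5-fold, 1643, 806, 638 and 1214 with probe sets of a gene averaged, and 3957, 2125, 2527 and 4169 with a spread borrowed from the fluid arrays, which assumes that single arrays vary as those do. With NaCl as the control 1672 genes were counted for 0% fluid. In that setting HK1 was no longer counted for butyrate (0.78), 0% fluid (0.22) or 2% fluid (0.45), while SLC2A1 (1.30, 2.49 and 2.04) and ARRDC3 (1.03, 1.07 and 1.01) were counted as higher in all 3. With 1 array left out in turn, the counts ran from 656 to 3058 (2% against 0%), 0 to 1185 (1% against 0%), 0 to 579 (2% against 1%), 1656 to 3704 (vessel 1), 0 to 375 (interaction), 931 to 1162 (0% fluid against medium) and 1700 to 2112 (2% fluid). Where limma passed 0 of the interaction, 1138 to 1531 genes had an unadjusted p under 0.05.

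The values that changed sign belonged to differences that had not passed as reported. Without vessel 1, HK2 gave -0.17 (2% against 0%), -0.22 (1% against 0%) and 0.041 (2% against 1%), TXNIP -0.55 and -0.57 for the first 2 of these, and ARRDC3 -0.005 for the third. With the mean of its probe sets HK2 gave -0.13 at 2% and -0.13 at 1% against 0%, and 0.27 for vessel 1, which then passed (adjusted p = 0.0173). The HK2 probe sets that were not chosen stayed under log2 5 in all 15 arrays (2.74 to 4.72 and 2.43 to 3.71). That mean therefore rests largely on signal below the detection limit. After quantile normalization again HK2 gave 0.0054 for 2% against 1%. For vessel 1, HK2 gave 0.29 (adjusted p = 0.0434) and TXNIP 0.45 in the 1% and 2% arrays only, and ARRDC3 -0.10 in the 0% and 1% arrays only, both settings chosen after seeing the data. With 1 array left out, the values at 2% against 0% ran from -0.20 to 0.20 for HK2, -0.34 to 1.33 for TXNIP and -0.21 to 0.019 for ARRDC3. Those at 1% against 0% ran from -0.19 to 0.20 for HK2 and -0.78 to 0.89 for TXNIP. Those at 2% against 1% ran from -0.34 to 0.078 for SLC2A1, -0.031 to 0.056 for HK1, -0.12 to 0.15 for HK2, -0.38 to 0.83 for TXNIP and -0.044 to 0.17 for ARRDC3. For vessel 1 they ran from -0.22 to 0.29 for HK2, -2.002 to 0.45 for TXNIP and -0.10 to 0.27 for ARRDC3. For the interaction they ran from -1.75 to 2.11 for SLC2A3, -0.011 to 0.29 for HK1, -2.03 to 0.33 for HK2 and -0.71 to 0.37 for ARRDC4. Some calls were gained. Without the 2% fluid of vessel 1 the SLC2A3 interaction passed at 2.11 (adjusted p = 0.0353) and SLC2A1 passed 2% against 0% (0.017). Without the 0% fluid of vessel 1 SLC2A1 passed 2% against 0% (0.0104), 1% against 0% (0.0416) and vessel 1 (0.00496, and 0.0142 in the 1% and 2% arrays only), and ARRDC4 passed 2% against 1% (0.0487). The ARRDC3 interaction passed without the 1% fluid of vessel 1 (0.0433) and with a filter at log2 6 (0.0471), and HK1 passed 2% against 0% with an intensity trend and robust prior (0.0383). Signals under log2 5 limit what can be said of SLC2A2 and SLC5A1.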
